A study of Mus musculus with 15 samples.

Results

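The genes described here are markers of cerebellar neurons, read in glial cells sorted from 3 brain regions of adult mice. The list held 9 genes chosen by name: parvalbumin (Pvalb), Pcp2, Pcp4, calbindin (Calb1), Car8, Itpr1, Gabra6, Cbln1 and Cbln3. These genes and the further gene lists below were chosen with earlier results of these data known. Their counts beside the shares of all genes are therefore a description and not a test of the lists. Of these, 8 had a probe set under the platform's gene symbols, among 18193 genes measured in all, and Itpr1, the calcium release channel of the endoplasmic reticulum, was not analysed here. Where several probe sets read a gene, the brightest on average over 15 arrays stood for it.

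All mice were male, 6 to 8 weeks old, and carried Gli1-CreER, GFAP-GFP and R26tdTomato together. In this design the Gli1 promoter drives a tamoxifen-activated Cre, so that cells responding to Sonic hedgehog at the time of tamoxifen carry tdTomato from then on, while the GFAP promoter drives green fluorescent protein in astroglia. Every mouse received tamoxifen as 2 doses of 10 mg, and the tissue was taken 3 weeks later. Cells positive for both labels came by flow sorting from 3 microdissected regions with 5 arrays each: the cerebellum, the hippocampus and the subventricular zone (SVZ) of the forebrain. Each sample pooled 10 to 12 mice, and no untreated or unsorted sample enters the comparisons. The labels number the samples of a region without saying whether they came from separate sorts, so the p-values measure the spread between these samples. The series' design compares each forebrain region with the cerebellum, and the forebrain regions with each other.

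The cerebellar cortex is built around Purkinje cells, its only output neurons, which receive input from the very numerous granule cells. Bergmann glia are the astroglia whose processes wrap the Purkinje cell dendrites. Purkinje cells are known for very high levels of calcium-binding and calcium-handling proteins. Pvalb and Calb1 are calcium buffers, Pvalb being shared with cortical and cerebellar inhibitory interneurons, and Pcp4 is a small calmodulin-binding protein. Pcp2 is a G protein regulator found almost only in Purkinje cells and retinal bipolar cells. Car8 is a carbonic anhydrase relative without enzyme activity that binds the Itpr1 channel. On the granule cell side, Gabra6 is a GABA-A receptor subunit, and Cbln1 and Cbln3 are secreted proteins of which Cbln1 bridges granule cell synapses to Purkinje cells.

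The sequence upstream of the start is shown for the Purkinje-associated genes that differed between regions and that have an entry in the RefSeq promoter table of build GRCm38.p6. It covers 250 bases before the most upstream listed start, 5′ to 3′ on the gene's strand. Pvalb lies at chr15:78206401-78206650 on the minus strand, Pcp2 at chr8:3625548-3625797 on the minus strand, and Pcp4 at chr16:96467356-96467605 on the plus strand. Capitals mark AGGTCA, the core letters bound by nuclear receptors such as RORα, a factor that Purkinje cells need, or its reverse complement TGACCT.
Pvalb: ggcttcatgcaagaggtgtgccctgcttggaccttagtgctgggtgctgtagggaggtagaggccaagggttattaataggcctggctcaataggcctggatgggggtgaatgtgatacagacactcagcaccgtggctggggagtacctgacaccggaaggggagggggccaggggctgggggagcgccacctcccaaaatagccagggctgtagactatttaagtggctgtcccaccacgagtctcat
Pcp2: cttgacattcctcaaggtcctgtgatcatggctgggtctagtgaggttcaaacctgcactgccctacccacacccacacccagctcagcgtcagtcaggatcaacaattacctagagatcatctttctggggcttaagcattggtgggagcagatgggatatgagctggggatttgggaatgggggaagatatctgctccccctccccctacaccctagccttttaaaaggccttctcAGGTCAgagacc
Pcp4: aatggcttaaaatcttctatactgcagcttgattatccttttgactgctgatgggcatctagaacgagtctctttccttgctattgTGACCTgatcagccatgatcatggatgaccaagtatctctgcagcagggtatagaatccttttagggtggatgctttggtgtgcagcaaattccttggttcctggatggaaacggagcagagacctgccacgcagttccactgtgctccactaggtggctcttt
The Pcp2 match begins 12 bases before the start and reads on the gene's own strand. The Pcp4 match begins 164 bases before the start and reads on the opposite strand. Pvalb has no match in this window. Of the 8 measured genes, 5 had an entry, and 2 of those held the letters on either strand. Of 27025 genes with an entry, 13.8% did. The letters were chosen with the Pcp2 sequence in view, and the matches describe these windows only.

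The values are RMA signals, a summary of a probe set's brightness over its probes, read here as log2, so that a difference of 1 is a factor of 2. Array medians lay between 1.12 and 1.31. The percentage of genes above a signal of 3 was 28.6 to 32 on the cerebellar arrays and 21.1 to 29 on the others. The array-control RNAs added during preparation had a mean signal of 12.56 ± 0.85 (SD, n = 5) in SVZ, 12.46 ± 0.55 in hippocampus and 10.28 ± 1.60 in cerebellum. In these arrays of cell pools, fewer cells of a type and less RNA per cell cannot be told apart. The sort genes themselves were at 2.80 ± 1.31, 2.83 ± 1.91 and 3.17 ± 0.35 for Gli1 in SVZ, hippocampus and cerebellum (SD, n = 5 each). Gfap was at 4.51 ± 1.06, 6.93 ± 0.63 and 4.99 ± 1.23. Of 20 astrocyte genes listed, array means ran from 7.68 to 9.32.

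Against the cerebellum, 4 of the 8 measured genes were lower in SVZ and 3 were lower in hippocampus. These were Pvalb, Pcp2, Pcp4 and Calb1 for SVZ, and Pvalb, Pcp2 and Calb1 for hippocampus. None was higher in either, where 1.03% and 0.808% of all genes were called higher. The test was limma over all 18193 genes with Benjamini-Hochberg adjustment, called at an adjusted p below 0.05. Over all genes, 4.47% were called lower in SVZ and 3.97% lower in hippocampus, and 5.51% and 4.78% were called in either direction. The 3 granule cell genes and Car8 did not pass in either comparison. At the rule the series' design states, more than 4-fold with p below 0.01, 2 of the 8 genes passed for SVZ (Pvalb and Pcp4), 2 for hippocampus (Pvalb and Pcp2) and 0 between SVZ and hippocampus, against 3.21%, 2.87% and 0.357% of all genes. That rule parts the regions for Pcp2 by little, since its log2 differences of -1.97 and -2.11 lie on either side of the 4-fold line and are measured against forebrain signals near the array medians.

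**Figure D1:**
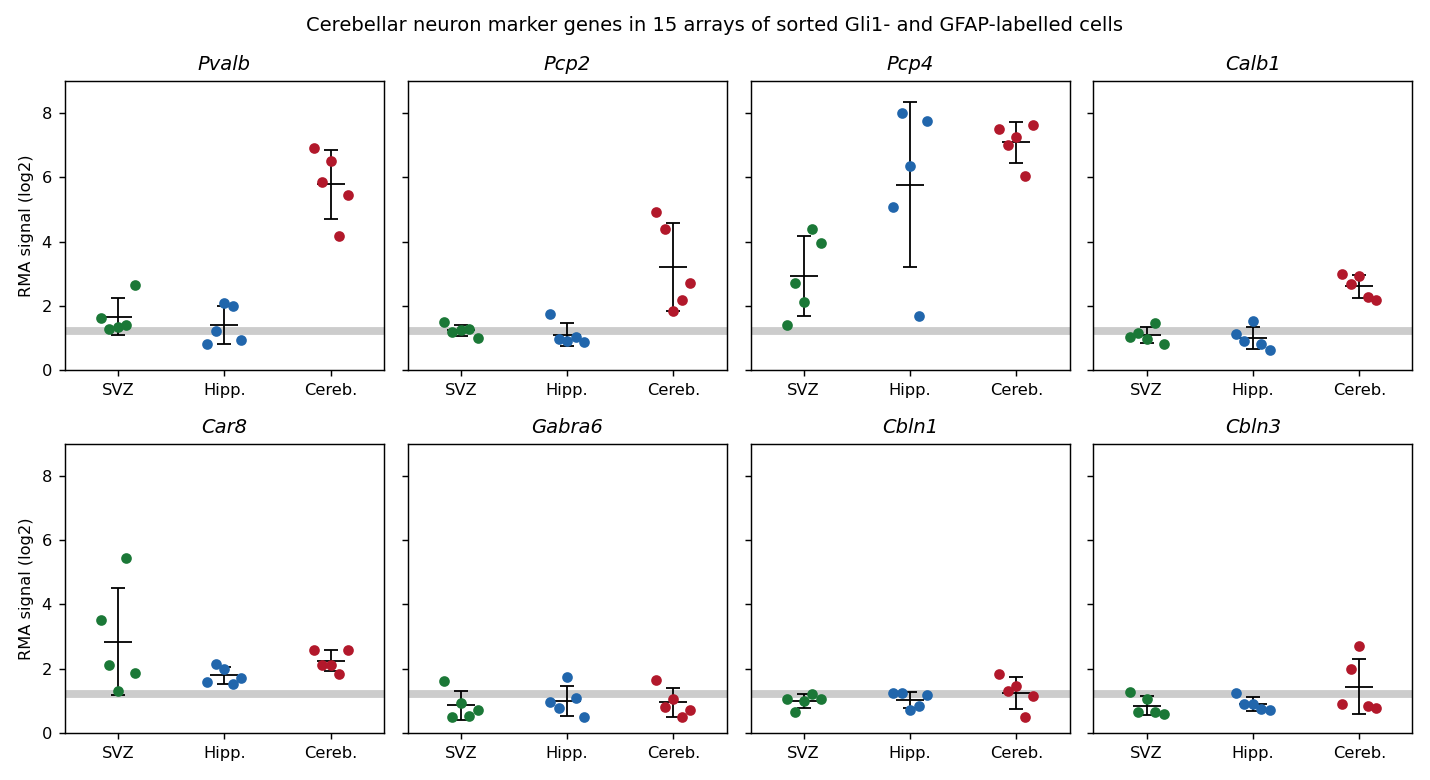
RMA signal (log2) of the 8 measured genes on each array (points) for SVZ, hippocampus and cerebellum, 5 arrays each; the bar and whiskers are the mean and SD and the grey band spans the 15 array medians. Pvalb in the cerebellum lies at 4.17 to 6.91 and stays at or below 2.66 elsewhere, Pcp4 is high in most hippocampus arrays too, and Gabra6 and Cbln1 stay near the band in all regions.

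Pvalb was high on every cerebellar array and low on every forebrain array. In SVZ the 5 arrays read 1.63, 1.28, 1.36, 1.42 and 2.66, and in hippocampus 0.83, 1.21, 2.1, 2.0 and 0.93. In cerebellum they read 6.91, 5.87, 6.5, 4.17 and 5.46. Each cerebellar array lay above all forebrain arrays, and SVZ 5 stood above the rest of SVZ. SVZ was lower by a log2 difference of -4.11 ± 0.46 (SE, limma adjusted p = 0.000115). Hippocampus was lower by a log2 difference of -4.37 ± 0.46 (limma adjusted p = 5.3e-05). The signal exceeded its array's median on 5 of 5 SVZ arrays and 3 of 5 hippocampus arrays and exceeded 3 on none of them, so no fold is given. Only 1 probe set reads this gene, so there is no second probe set to set beside it.

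Pcp2, the most Purkinje-restricted gene of the list, was low in the forebrain and variable in the cerebellum. SVZ arrays read 1.5, 1.2, 1.24, 1.28 and 1.01, and hippocampus arrays 1.75, 0.96, 0.92, 1.02 and 0.89. Cerebellar arrays read 4.93, 4.39, 1.84, 2.19 and 2.72. Cerebellar arrays 1 and 2 were well above the other 3, and the lowest of the 5 exceeded the highest hippocampus array by a small margin. The log2 difference was -1.97 ± 0.49 for SVZ (limma adjusted p = 0.0315) and -2.11 ± 0.49 for hippocampus (limma adjusted p = 0.0244). Pcp2 exceeded the array median on 3 of 5 SVZ arrays and 1 of 5 hippocampus arrays, so no fold is given here either. Both other Pcp2 probe sets went the same way in both comparisons. One of them read 4.57, 4.36, 3.1, 2.0 and 2.87 in cerebellum and was lower by -2.23 ± 0.40 in SVZ (limma adjusted p over all probe sets = 0.00462). The other was lower by -1.28 ± 0.33 in SVZ (limma adjusted p = 0.041) and by -1.20 in hippocampus, where it missed the threshold (limma adjusted p = 0.0602).

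The call for Pcp2 depended on single arrays. In the SVZ comparison the limma adjusted p rose to 0.054 without SVZ array 2, 0.0543 without SVZ 3, 0.0553 without SVZ 4 and 0.0647 without SVZ 5. It rose to 0.0519 without cerebellar array 1, 0.0808 without cerebellar 2 and 0.0502 without cerebellar 5. In the hippocampus comparison it rose to 0.0556 without hippocampus 3, 0.0512 without hippocampus 4, 0.053 without hippocampus 5 and 0.0654 without cerebellar 2. The difference itself stayed between -2.31 and -1.54 in the SVZ comparison and between -2.45 and -1.68 in the hippocampus comparison.

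Calb1 was low throughout, with a small and tight difference. SVZ arrays read 1.04, 1.17, 0.97, 1.46 and 0.81, and hippocampus arrays 1.12, 0.92, 1.52, 0.83 and 0.62. Cerebellar arrays read 2.99, 2.68, 2.92, 2.29 and 2.17, all above every forebrain array and none above 3. SVZ was lower by -1.52 ± 0.21 (SE, log2, limma adjusted p = 0.000653) and hippocampus by -1.61 ± 0.21 (limma adjusted p = 0.000388). The forebrain signal exceeded the array median on 1 of 5 arrays in each region. The difference was read by 1 of the gene's 4 probe sets. The other 3 had log2 differences of -0.13, -0.21 and 0.04 for SVZ and 0.25, -0.14 and 0.20 for hippocampus, and none passed. With the mean of the 4 probe sets in its place, the SVZ difference was -0.46 (limma adjusted p = 0.0363) and the hippocampus difference -0.33 (limma adjusted p = 0.132).

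**Figure D2:**
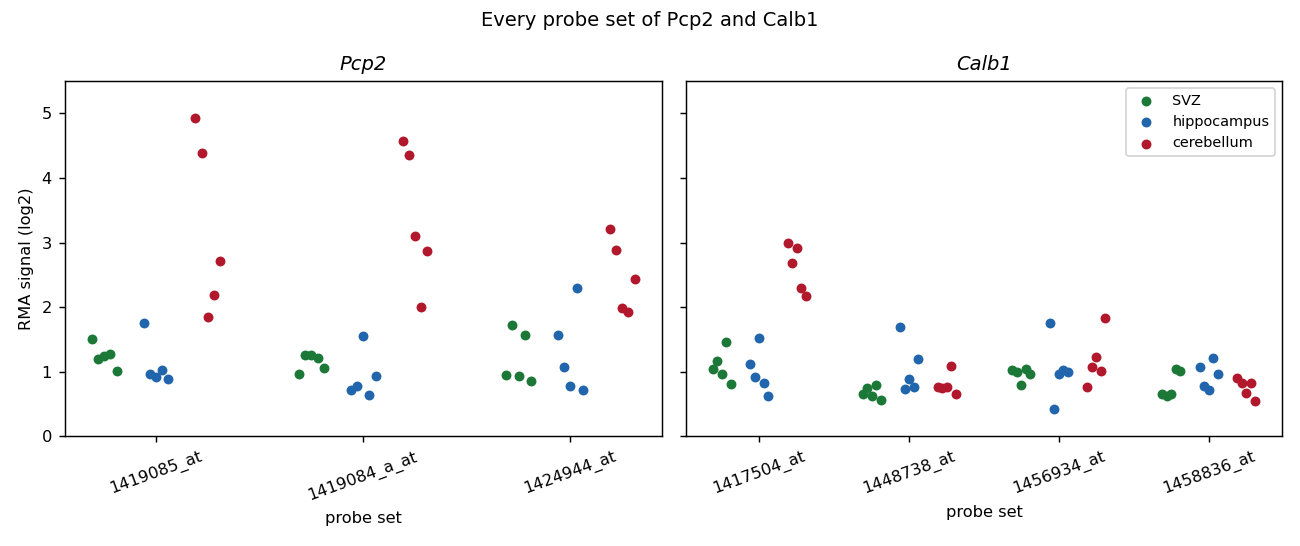
RMA signal (log2) of every probe set of Pcp2 (left) and Calb1 (right) on each array, coloured by region. All 3 Pcp2 probe sets are higher in the cerebellum on average, whereas for Calb1 the cerebellar arrays stand apart, at 2.17 to 2.99, on 1 of 4.

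Pcp4 was high in the cerebellum and low in SVZ, and it was high on 4 of 5 hippocampus arrays as well. SVZ arrays read 1.42, 2.71, 2.13, 4.38 and 3.97, and cerebellar arrays 7.52, 7.02, 7.25, 6.03 and 7.62, with no overlap between them. Hippocampus arrays read 5.09, 7.99, 6.37, 1.69 and 7.75, so that 2 of them lay above all cerebellar arrays and hippocampus 4 lay near the SVZ level. SVZ was lower than cerebellum by -4.17 ± 0.99 (SE, log2, limma adjusted p = 0.0244). Hippocampus differed from cerebellum by -1.31 ± 0.99 (limma adjusted p = 0.458), with an interval of -3.43 to 0.81. SVZ differed from hippocampus by -2.86 ± 0.99, which did not pass (limma adjusted p = 0.546). The SVZ call was lost without SVZ 1 (limma adjusted p = 0.0581), SVZ 3 (0.0518), cerebellar 1 (0.0543), cerebellar 2 (0.0533), cerebellar 3 (0.0529) or cerebellar 5 (0.064). Over all runs with a single array left out, called or not, the SVZ difference lay between -4.53 and -3.79.

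Pcp4 is also made by hippocampal neurons, among them those of field CA2. None of 18 measured hippocampal neuron genes passed in any comparison. Their array means were 1.57, 1.95, 1.8, 1.53 and 1.53 on hippocampus arrays 1 to 5, highest on array 2, where Pcp4 was highest too. They ran from 1.46 to 1.62 in SVZ and 1.23 to 1.59 in cerebellum. Choroid plexus RNA varied between arrays as well. The array mean of 12 ependymal and choroid plexus genes was 2.00, 6.05, 2.71, 2.64 and 5.02 over hippocampus arrays 1 to 5, with its highest values on the 2 arrays that were highest for Pcp4. Ttr, the transthyretin gene that choroid plexus makes in bulk, read 11.18, 13.94, 12.83, 12.30 and 13.83 on the same arrays. In cerebellum Ttr was lowest on array 2, at 6.87, where Pcp4 was 7.02. In SVZ the 2 arrays highest for Ttr, array 4 at 10.35 and array 5 at 10.21, were also the 2 highest for Pcp4. The part of choroid plexus RNA or of hippocampal neuron RNA in the Pcp4 values was not tested.

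For Car8 no difference between regions passed the test. Hippocampus arrays read 1.57, 2.14, 1.99, 1.52 and 1.72, and cerebellar arrays 2.57, 2.11, 2.11, 1.83 and 2.58. SVZ arrays read 3.51, 2.11, 1.29, 5.43 and 1.88, so SVZ arrays 4 and 1 were the highest of the 15 on this probe set. Another Car8 probe set read 3.73 on hippocampus array 4. The difference from cerebellum was 0.60 ± 0.59 (SE, log2) for SVZ, with an interval of -0.65 to 1.86 (limma adjusted p = 0.569). For hippocampus it was -0.45, with an interval of -1.71 to 0.80 (limma adjusted p = 0.669). Without SVZ array 4 the SVZ difference was -0.04. The 2 other Car8 probe sets gave -0.49 and 0.31 for SVZ, and neither passed.

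Of the 9 genes chosen, the 3 granule cell genes, Gabra6, Cbln1 and Cbln3, did not pass the test in any comparison. Gabra6 arrays ranged from 0.51 to 1.61 in SVZ, 0.48 to 1.73 in hippocampus and 0.50 to 1.65 in cerebellum, with medians of 0.70, 0.95 and 0.81. The groups overlapped almost wholly. It exceeded its array's median on 3 of 15 arrays, 1 in each region. The difference from cerebellum was -0.09 for SVZ (interval -0.69 to 0.51) and 0.06 for hippocampus (interval -0.54 to 0.66).

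Cbln1 ranged from 0.66 to 1.21 in SVZ and 0.70 to 1.23 in hippocampus, and read 1.83, 1.29, 1.45, 0.50 and 1.15 in cerebellum. It lay above the array median on 4 of the 5 cerebellar arrays, 1 hippocampus array and no SVZ array. The difference from cerebellum was -0.25 for SVZ (interval -0.72 to 0.22; limma adjusted p = 0.526) and -0.21 for hippocampus (interval -0.68 to 0.26; limma adjusted p = 0.598). Cbln3 read 0.90, 2.00, 2.70, 0.85 and 0.76 in cerebellum, so that arrays 2 and 3 stood above the rest. Its SVZ and hippocampus arrays lay between 0.59 and 1.27. The difference was -0.60 for SVZ (interval -1.31 to 0.11; limma adjusted p = 0.324) and -0.55 for hippocampus (interval -1.26 to 0.16; limma adjusted p = 0.363). Signal differences of the size seen for Pvalb lie outside the intervals of Gabra6, Cbln1 and Cbln3. None of these 3 genes exceeded a signal of 3 on any array. Their intervals therefore bound differences in dim signal and do not exclude a larger difference in RNA.

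**Figure D3:**
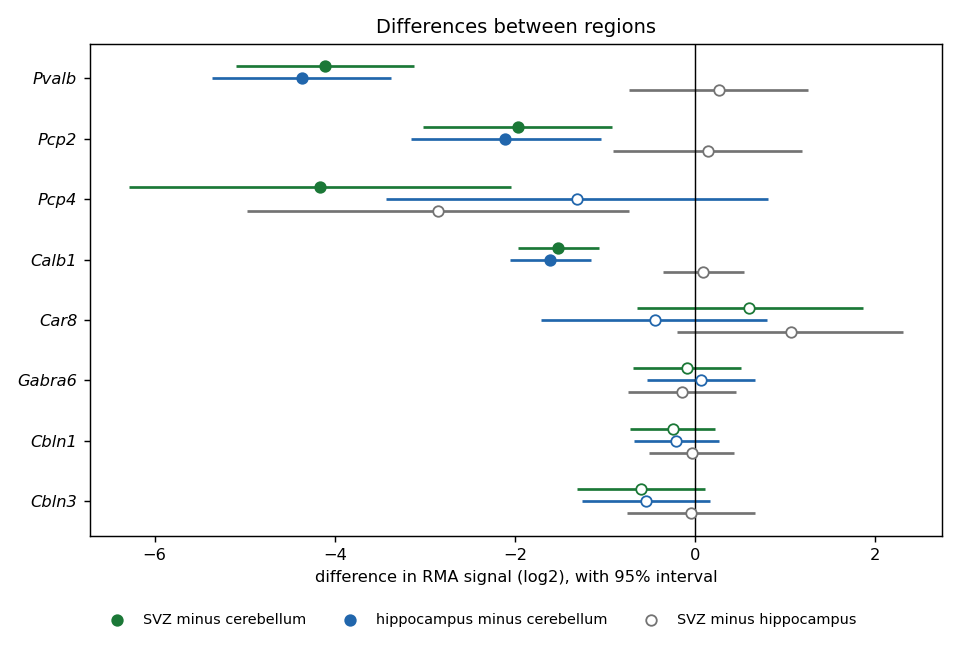
Difference in RMA signal (log2) with its 95% interval for each gene in 3 comparisons; filled points passed limma's adjusted p of 0.05 and open points did not. Pvalb, Pcp2 and Calb1 are filled for both forebrain regions against cerebellum, Pcp4 for SVZ alone, and no point of the comparison of SVZ with hippocampus is filled.

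Between SVZ and hippocampus 0 of the 8 genes passed limma's adjusted threshold, and 1, Pcp4, had an unadjusted p below 0.05. Over all genes 0.022% were called in that comparison, and 7.02% had an unadjusted p below 0.05. Apart from Pcp4, the differences ran from -0.15 for Gabra6 to 1.06 for Car8. The comparisons of SVZ and of hippocampus with cerebellum share the same 5 cerebellar arrays, so the called genes they have in common are not independent observations. Where all arrays of a region lay below all cerebellar arrays, the count was 4 of 8 genes for SVZ and 3 of 8 for hippocampus, against 6.02% and 5.3% of all genes. Among the 11 further probe sets of these genes, 9 had the sign of the gene's main probe set in the SVZ comparison and 8 in the hippocampus comparison. Of them 2 and 1 passed, all for Pcp2.

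The cerebellar arrays differed from one another across the list. Array 1 was the highest of the 5 for 5 of the 8 genes and array 4 the lowest for 5. For Pvalb, array 1 read 6.91 and array 4 read 4.17. The control RNA mean was 12.34, 10.85, 10.87, 8.84 and 8.49 on arrays 1 to 5, so array 1 was highest in it and arrays 4 and 5 lowest. The mean of 17 Bergmann glia genes was 8.99, 9.46, 9.03, 9.59 and 9.23, lowest on array 1 and highest on array 4. The mean of 27 pan-neuronal genes was 2.63, 2.52, 2.19, 2.17 and 2.18, higher on arrays 1 and 2, the same arrays that were high for Pcp2. These patterns were noticed after the values were seen, over 5 arrays, and were not tested. With the control RNA mean as a covariate the SVZ differences were -5.18 for Pvalb, -2.95 for Pcp2 and -1.90 for Calb1, still called, and -3.96 for Pcp4, not called (limma adjusted p = 0.329). Without cerebellar arrays 4 and 5, Pcp4 was -4.34 and not called (limma adjusted p = 0.106).

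Of 20 further Purkinje cell genes, 16 were measured, and none passed in any comparison. Their median log2 difference was -0.01 for SVZ and -0.15 for hippocampus, against 0.07 over all genes in both. Gng13, a G protein subunit, read 5.33, 2.86, 2.09, 1.64 and 2.35 in cerebellum and 0.78 to 1.26 in hippocampus. Its arrays did not overlap there, and its difference of -1.93 missed the threshold (limma adjusted p = 0.0596). Against SVZ, where arrays ran from 0.79 to 2.31 and overlapped the cerebellar ones, the difference was -1.35 (limma adjusted p = 0.172). Cacna1a, the P/Q-type calcium channel, differed by -0.53 for SVZ (limma adjusted p = 0.133) and -0.66 for hippocampus (limma adjusted p = 0.0705). Slc1a6, the Purkinje cell glutamate transporter, had means of 1.17, 1.17 and 0.96 in SVZ, hippocampus and cerebellum, within or below the range of the array medians. Rora, which encodes RORα, had means of 6.57, 6.37 and 6.37, and neither comparison passed (limma adjusted p = 0.829 and 1).

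Among 19 measured granule cell genes, 2 were lower and 1 was higher in SVZ than in cerebellum, with a list median of 0.17. The lower genes were the transcription factors Zic1, at -5.08 ± 1.35 (SE, log2, limma adjusted p = 0.0422), and Zic2, at -3.23 ± 0.69 (limma adjusted p = 0.0138). The higher gene was the NMDA receptor subunit Grin2c, at 3.48 ± 0.93 (limma adjusted p = 0.0437). In hippocampus Grin2c alone passed, at 3.94 (limma adjusted p = 0.0261), and the list median was -0.02. Among all genes, 4.47% were called lower and 1.03% higher in SVZ, and 3.97% lower and 0.808% higher in hippocampus. Zic1 read 7.48 to 8.75 on cerebellar arrays, but 0.47 to 6.53 in SVZ and 0.73 to 5.91 in hippocampus. The vesicular glutamate transporter Slc17a7 and the transcription factor Neurod1, both made by granule cells, had cerebellar means of 0.69 and 1.11. These 2 genes were singled out after values were seen, and Zic1 and Zic2 had cerebellar means of 8.01 and 5.36. None of 13 measured genes of cerebellar inhibitory interneurons and unipolar brush cells passed. Their array means were 0.93 to 1.07 in cerebellum, 1.15 to 1.46 in SVZ and 0.93 to 1.42 in hippocampus. The median log2 difference of that list from cerebellum was 0.31 for SVZ and 0.25 for hippocampus, against 0.07 over all genes in both. The array means of the Purkinje cell list overlapped between regions, at 2.59 to 2.83 in cerebellum, 2.40 to 2.60 in SVZ and 2.23 to 2.71 in hippocampus. Those of the granule cell list overlapped too, at 2.14 to 2.40, 1.5 to 2.20 and 1.80 to 2.33.

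Of 27 pan-neuronal genes, 1 was higher and 2 were lower in SVZ, and 1 was lower in hippocampus, where 5.51% and 4.78% of all genes were called in either direction. Map2, a microtubule protein of dendrites, was lower in both, at -1.03 ± 0.28 (SE, log2, limma adjusted p = 0.0434) and -1.53 ± 0.28 (limma adjusted p = 0.00468). Syp, a synaptic vesicle protein, was lower in SVZ at -2.16 ± 0.51 (limma adjusted p = 0.0249), and the surface protein Thy1 was higher there at 2.47 ± 0.54 (limma adjusted p = 0.0158). Snap25, a synaptic fusion protein, had means of 4.06, 3.60 and 5.72 in SVZ, hippocampus and cerebellum, and neither difference from cerebellum passed (limma adjusted p = 0.34 and 0.234). Rbfox3, the NeuN antigen, had a cerebellar mean of 1.35. None of 18 striatal neuron genes passed in any comparison.

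**Figure D4:**
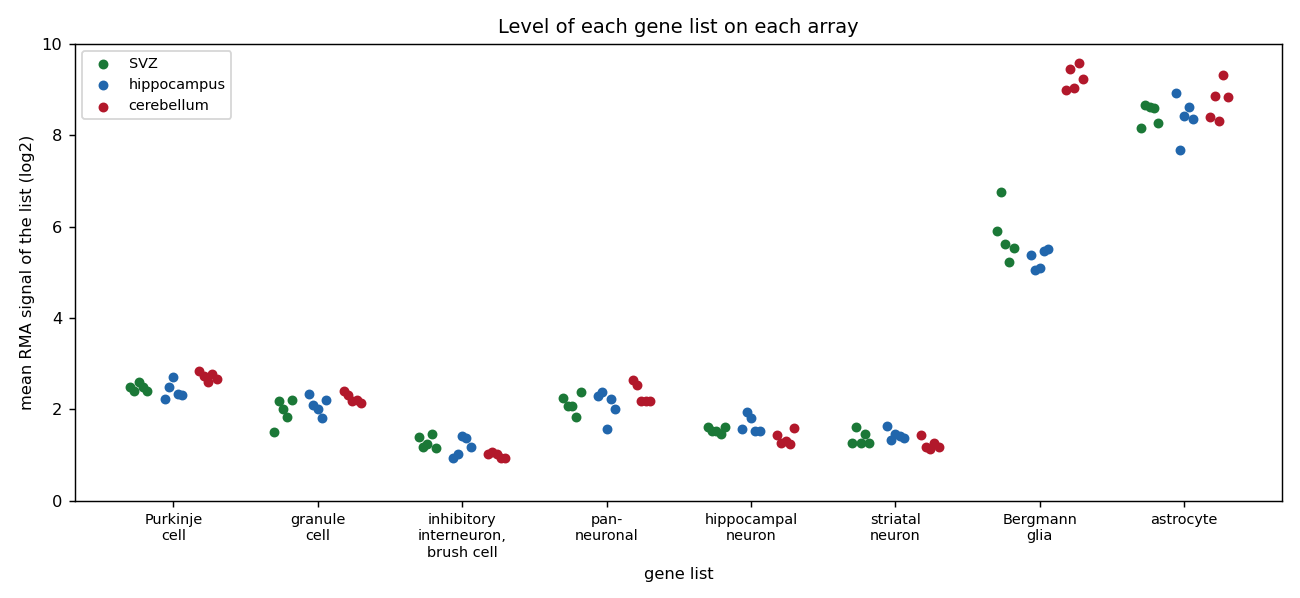
Mean RMA signal (log2) of each gene list on each array, by region; a list's level depends on its probe sets and is compared between regions only. The Bergmann glia list is at 8.99 to 9.59 in cerebellum and at 5.04 to 6.75 elsewhere, while the neuronal lists lie below 3 in all regions.

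Genes that bind these markers or belong to their families gave 33 measured members. Of these 33, 4 (Gabra4, Gabra2, Car10 and Grid1) were lower in both forebrain regions and none was higher. Among all genes, 4.47% were called lower in SVZ and 3.97% in hippocampus. Gabra4 and Gabra2 encode GABA-A receptor subunits related to Gabra6. Gabra4 read 4.62 to 6.53 in cerebellum and was lower by -3.31 ± 0.44 in SVZ (limma adjusted p = 0.000491) and -3.83 in hippocampus (limma adjusted p = 0.000121). Gabra2 was lower by -3.02 (limma adjusted p = 0.0175) and -3.65 (limma adjusted p = 0.0055). Car10, a relative of Car8, was lower by -2.58 (limma adjusted p = 0.00136) and -2.37 (limma adjusted p = 0.00239). Grid1, a delta glutamate receptor of the family that binds cerebellins, was lower by -1.25 (limma adjusted p = 0.00832) and -0.93 (limma adjusted p = 0.045). The median over the 33 was -0.17 for SVZ and -0.09 for hippocampus.

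Of 17 measured Bergmann glia genes, 14 were lower in each forebrain region, with medians of -3.61 and -3.75. The share of all genes called lower was 4.47% in SVZ and 3.97% in hippocampus. The AMPA receptor subunit Gria4 read 9.12 to 10.26 in cerebellum and was lower by -7.26 ± 0.68 in SVZ (SE, log2, limma adjusted p = 2.45e-05). Among cerebellar arrays, Gabra4 and Gdf10, a growth factor of Bergmann glia, were both lowest on array 1 and highest on array 4, at 4.62 and 6.53 and at 7.73 and 9.80. Gabra2 ran the other way, highest on array 1 at 8.0 and lowest on array 4 at 5.11, as Pvalb did. Gria4 was highest on array 2, at 10.26, and lowest on array 5, at 9.12. The genes of these lists therefore had no single order among the cerebellar arrays. Of 13 microglia genes, 5 were higher in SVZ and 2 in hippocampus than in cerebellum. Of 13 endothelial and pericyte genes, 2 and 1 were higher. The share of all genes called higher was 1.03% in SVZ and 0.808% in hippocampus. Of 20 astrocyte genes, 4 rose and 3 fell in SVZ relative to cerebellum, and for hippocampus the counts were 2 and 5. Of 11 oligodendrocyte genes only Cnp was lower, in both. No ependymal, choroid plexus or red blood cell gene passed.

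The genes with the most similar profiles were sought among 5997 genes whose highest region mean exceeded 3, by the root mean square difference between profiles centred on their own mean over 15 arrays. The same arrays enter every profile, so likeness includes what they share. For Pvalb, whose own spread by that measure was 2.12, they were Ctnna3 at 0.62, Ggct at 0.66 and 0610040J01Rik at 0.70. For Pcp2, with a spread of 1.21, they were Tdgf1 at 0.38, Rflnb at 0.55 and Tipin at 0.57. For Pcp4, with a spread of 2.30, the closest was Cntn1, a cell adhesion molecule, at 1.15, followed by Ppp1r11 at 1.21 and Cep20 at 1.26. For Calb1, with a spread of 0.79, they were Ankrd49 at 0.21, Dipk1a at 0.34 and Ndrg2 at 0.35. For Car8, with a spread of 0.98, they were Egfl8 at 0.50, Tmed5 at 0.51 and Taf1b at 0.54. For Gabra6, Cbln1 and Cbln3, with spreads of 0.41, 0.32 and 0.56, the closest were Serf1 at 0.35, Nme1 at 0.32 and Eif2d at 0.40. For Gabra6 and Cbln1 the difference from the closest gene was little or no smaller than the gene's own spread.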

How the data were processed

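Cells of 15 samples, 5 for each region, were measured on arrays, and the authors deposited 1 value per probe set. Those values are RMA signals, per the submitters' processing notes; the log base is not stated, and the deposited values were read as log2 from their range. The version and settings of RMA were not given in the sources used here. Probe sets were named through the platform annotation (34958 of 45101 with 1 symbol, 932 with several, 9211 with none). Of those with 1 symbol, 34754 were matched through Entrez identifiers to a reference gene symbol, which was used whether or not it differed. One probe set per gene, the brightest on average, gave 18193 genes.

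The differences were fitted with limma 3.58.1 (R 4.3.3) on all 15 arrays with region as the only term, with Benjamini-Hochberg adjustment over all genes. The number of arrays limits the precision. The code was tested on simulated data. The members and lists were chosen with earlier results of these data known. Named genes are the members, up to 2 called genes each way per list and comparison (or the 2 of smallest p), and the 3 most similar genes per member; Slc1a6, Rora, Slc17a7, Neurod1, Snap25, Rbfox3, Car10 and Grid1 and the values within cerebellum were singled out after values were seen.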

Additional observations from a re-analysis of the deposited data

Results flagged for a closer look

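Within a group of 5 arrays, a value far from the other 4 was looked for in all 19 probe sets of the 8 genes, or 57 groups, and 8 were found; chance gives about 1 in 20. Pvalb was highest on SVZ array 5, at 2.66. Pcp2 was highest in hippocampus on array 1, at 1.75. On further probe sets of these genes, Calb1 was highest in cerebellum on array 4, at 1.09, Car8 was highest in hippocampus on array 4, at 3.73, and Gabra6 was lowest in cerebellum on array 4, at 0.74. A further Cbln3 probe set had such an array in each region: SVZ 1 at 1.54, hippocampus 5 at 1.6 and cerebellum 1 at 2.5.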

How the results depend on the processing

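The calls for Pvalb held under every alternative run in which it was tested. The run with dim genes left out adds no support. Pvalb exceeded 3 on 5 of 5 cerebellar arrays and on no SVZ or hippocampus array, so it entered that run through the cerebellum alone. The calls for Calb1 held in every run that tested it, with 2 exceptions. These were the rule of more than 4-fold, in both comparisons, and the mean of its 4 probe sets, for hippocampus. Pcp2 and Pcp4 lost theirs under several, and the cause was not tested. For SVZ against cerebellum, the 4 called genes fell to 2 with dim genes left out, 2 without SVZ 1 and hippocampus 3, 2 at an adjusted p below 0.01 and 2 at 4-fold with p below 0.01, and ran from 2 to 4 with single arrays left out. For hippocampus, 3 fell to 1 with dim genes left out, since only Pvalb and Pcp4 exceeded 3 on at least 5 arrays, and ran from 2 to 3; for SVZ against hippocampus they stayed at 0. Pcp2 also missed the threshold after quantile normalisation (limma adjusted p = 0.0647 and 0.0509), with array weights (0.0558 and 0.0573), with weights per region (0.0747 and 0.0667), with only the 2 groups compared (0.0676 and 0.063), and without SVZ 1 and hippocampus 3 (0.0577 and 0.0669); Pcp4 against SVZ missed it in the last (0.0681).

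Over all genes, the 1002 called for SVZ against cerebellum became 581 after quantile normalisation and 1561 with array weights. They became 184 with the control RNA covariate, 368 without cerebellum 4 and 5, 388 at 0.01 and 584 at 4-fold. With single arrays left out they ran from 612 to 1094. With every probe set tested on its own, 1717 were called, a count of probe sets and not of genes. The 869 for hippocampus became 463 (quantile), 212 (covariate), 358 (without cerebellum 4 and 5), 365 (at 0.01) and 522 (4-fold), and 545 to 1162. Here 1477 probe sets were called with each tested on its own. The 4 for SVZ against hippocampus became 0 with dim genes left out, 0 with probe sets averaged, 1 with weights per region, 0 with a trended prior, 0 with 2 groups, 2 with the covariate, 9 without SVZ 1 and hippocampus 3, 1 without cerebellum 4 and 5, 1 at 0.01 and 65 at 4-fold, and 1 to 11.

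Signs turned only among small uncalled differences. Gabra6 in hippocampus against cerebellum, 0.06, became 0 after quantile normalisation, -0.05 after median centring, -0.05 with probe sets averaged, -0.46 with the covariate, -0.12 without SVZ 1 and hippocampus 3, -0.17 without cerebellum 4 and 5, and -0.12 to 0.23 with single arrays left out. With single arrays left out, Gabra6 ran from -0.28 to 0.08 and Car8 from -0.04 to 0.99 for SVZ against cerebellum. For SVZ against hippocampus, Calb1 was -0.13 and Cbln1 0.03 with probe sets averaged, and with single arrays left out Calb1 ran from -0.01 to 0.22, Cbln1 from -0.13 to 0.04, Cbln3 from -0.16 to 0.04 and Gabra6 from -0.34 to 0.03.

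With the replicate number as a block, 4, 3 and 0 of the 8 genes were called, and no call of theirs changed. The deviations of same-numbered arrays from their group means had correlations of -0.121 to 0.138 over 4816 genes. Such weak correlations cannot show whether same-numbered samples shared mice or a sort, which the labels do not state.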
